A study of Mus musculus with 9 samples.

Results

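The classical complement pathway is a cascade of blood and tissue proteins. It starts when C1q, assembled from the products of C1qa, C1qb and C1qc, binds an antibody or a cell surface, and the proteases C1r and C1s attached to it then cut C4 and C2. The joined fragments of C4 and C2 cut C3, whose fragments coat the target for uptake by phagocytes, while the C1 inhibitor encoded by Serping1 blocks C1r and C1s. In the nervous system C1q is made mainly by microglia, the resident macrophages, and complement is known for tagging synapses and dying cells there.

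The genes described are 9 members of this pathway, C1qa, C1qb, C1qc, C1ra, C1s, C2, C3, C4b and Serping1, chosen by name, out of 21769 genes counted per library. All 9 were listed. The listed C1s is the gene now called C1s1, by its older name in RefSeq. The 9 libraries came from polyadenylated RNA of whole mouse retina, 2 retinae to a library, with 3 biological replicates in each of 3 groups. The rd10 group, labelled degenerated, was taken at postnatal day 61. These mice have a mutated Pde6b gene, a subunit of the rod phosphodiesterase, and lose their rods after birth. The GFP group, labelled normal, came from mice that express green fluorescent protein. The labels give day 42 for a line written Gg13, read here as this group. The wild type group, also labelled normal, was taken at day 48. No promoter of the GFP gene and no strain background is named in the labels, and the age of each group coincides with its genotype, so that age and genotype cannot be told apart.

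Library totals ran from 9597635 to 12149448 counts. Values are CPM, counts per 1000000 of a library total that was adjusted by the TMM method, and 1 count was worth 0.0738 to 0.115 CPM. All 10 rod genes of a marker list were lower in rd10, where their summed level was 504 to 1165 CPM, against 81258 to 89874 CPM in GFP and 73977 to 99536 CPM in wild type. Lens RNA was present in 4 libraries (rd10 2, GFP 1, wild type 2 and wild type 3), with 955 to 2267 CPM of the lens crystallin gene Cryaa, against 0.158 to 10.4 CPM in the other libraries. For the members and for the totals over all genes, results without these 4 libraries are given where that changed them. For the other genes named they are not given, and a missing value there does not mean that a call held. CPM are shares of a library's counts, and the share of rod RNA was far lower in rd10. In whole retina, more cells of a type, more RNA per cell and a larger share after rod loss cannot be told apart.

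In rd10 retina, C4b, Serping1 and C3 rose by 19.2-fold, 7.05-fold and 6.55-fold over wild type, and the 3 C1q genes by 2.90-fold to 3.11-fold. C1ra, C2 and C1s were 4.62-fold, 2.28-fold and 1.83-fold higher without passing. Passing means an adjusted p under 0.05 over all 14300 genes tested, from the quasi-likelihood F-test of edgeR. By this measure 6 of 9 members were higher in rd10 than in wild type and 0 lower, where 14.5% of all genes tested were higher and 13.9% lower. The median log2 fold change of the members was 1.64, beside -0.03 over all genes tested. Every rd10 library lay above every wild type library for all 9 members, which held for 26.1% of genes tested. Against GFP, 8 of 9 members were higher in rd10, with 15.2% of genes higher and 15% lower as background, and C1s did not pass. All 9 were again free of overlap between libraries, beside 25.1% of genes tested. The comparisons share the rd10 libraries. Scaled by library totals instead of TMM, the median of all genes moved to 0.25 against wild type, 3604 genes were higher and 1077 lower (2067 and 1988 with TMM), and 8 of the 9 members were higher. Without the libraries with lens RNA, wild type 1 was the single wild type library left, assumed in the fit to vary like the rd10 and GFP libraries kept. C3, C4b and Serping1 passed against it, and C1ra passed over its 0 count, which gives no usable fold.

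**Figure D1:**
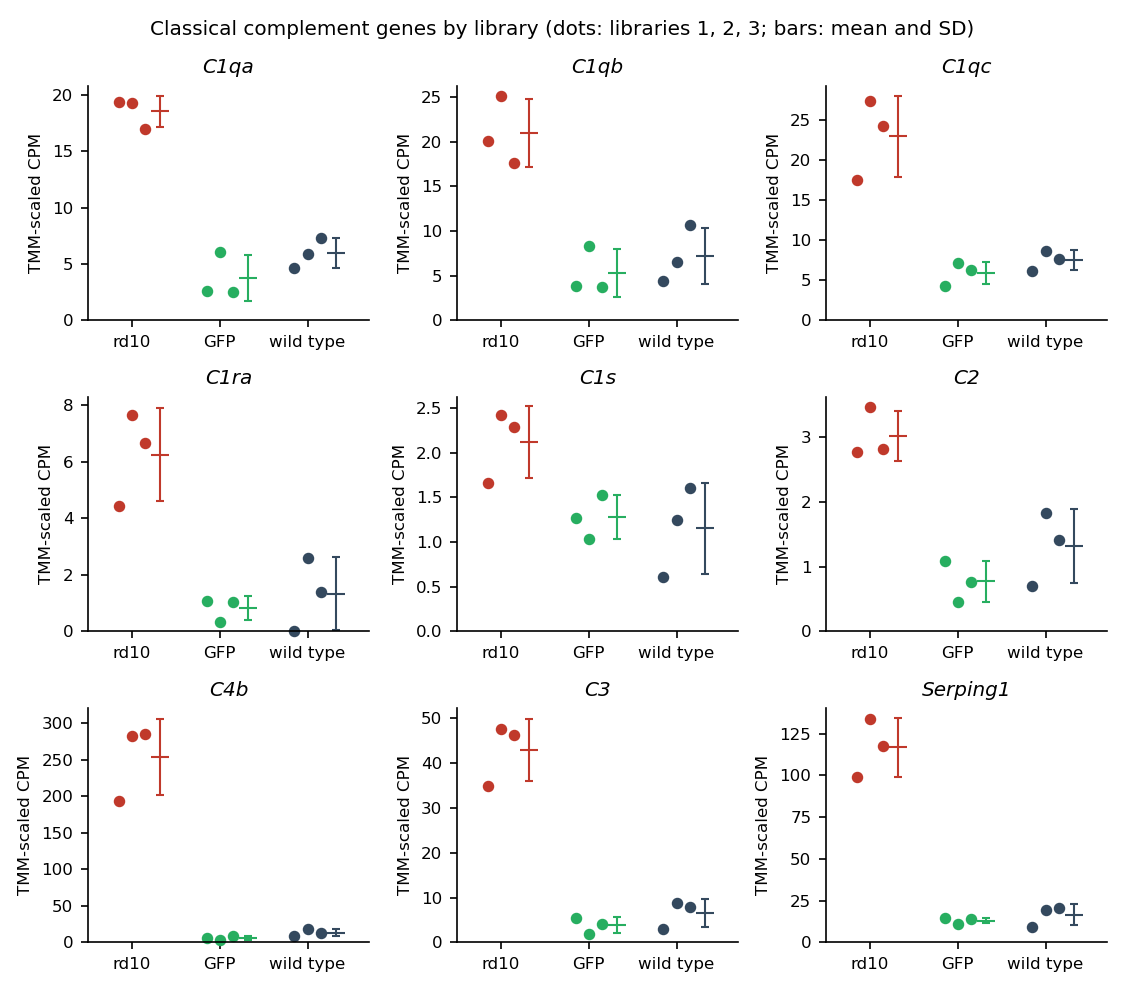
TMM-scaled CPM of each gene (vertical axis, linear, starting at 0) in the rd10, GFP and wild type libraries. Dots are libraries 1, 2 and 3 of each group, and bars give the mean and SD; for all 9 genes the lowest rd10 dot stands above the highest GFP and wild type dots.

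**Figure D2:**
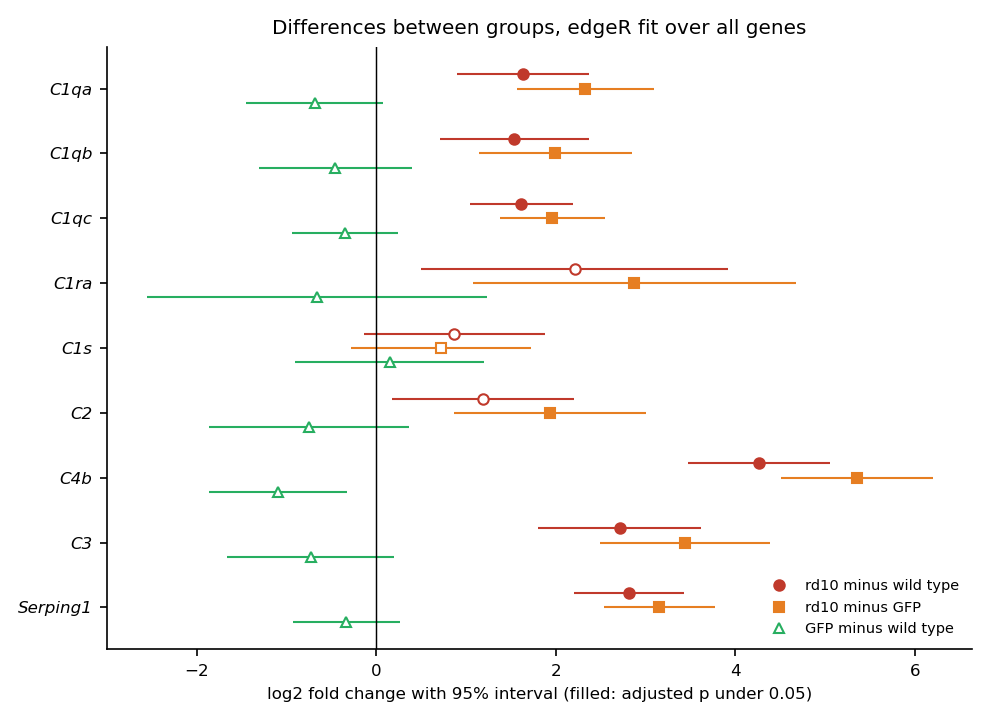
Log2 fold change with its 95% interval (horizontal axis) for each gene in rd10 minus wild type, rd10 minus GFP and GFP minus wild type. Filled symbols have an adjusted p under 0.05: 6 genes in rd10 minus wild type, 8 in rd10 minus GFP and 0 in GFP minus wild type.

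The recognition subunit was measured through its 3 chain genes, which lie side by side on chromosome 4 (mm9) on the minus strand. C1qb spans 136436061 to 136442092, C1qc 136445717 to 136448829 and C1qa 136451831 to 136454759. The gaps between them are 3624 and 3001 bases, and no other listed gene lies between them. The genes of this cluster rose together, so the 300 bases around the RefSeq starts of C1qb and C1qc (GRCm38.p6, minus strand, 250 before and 50 after the start) are shown, with matches to 6 searched motifs in capitals. The window of C1qb is chr4:136886151-136886450 and that of C1qc is chr4:136892865-136893164.
C1qb: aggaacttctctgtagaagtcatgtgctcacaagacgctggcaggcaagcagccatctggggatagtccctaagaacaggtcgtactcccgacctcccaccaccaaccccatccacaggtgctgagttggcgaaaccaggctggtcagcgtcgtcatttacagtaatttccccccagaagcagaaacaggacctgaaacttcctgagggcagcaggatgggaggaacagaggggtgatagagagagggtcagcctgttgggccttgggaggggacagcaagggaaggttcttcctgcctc
C1qc: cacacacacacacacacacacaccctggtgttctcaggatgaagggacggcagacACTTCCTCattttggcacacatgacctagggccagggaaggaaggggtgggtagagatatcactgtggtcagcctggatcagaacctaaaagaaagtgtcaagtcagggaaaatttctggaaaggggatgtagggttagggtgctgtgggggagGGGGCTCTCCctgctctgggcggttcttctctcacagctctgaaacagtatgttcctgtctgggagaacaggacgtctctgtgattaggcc

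The motifs, searched on both strands, were TTCNNNGAA (STAT factors), the interferon response element by its consensus, GAGGAAGT (PU.1, a factor of macrophages), TATAAA, TTNNGCAA (C/EBP factors) and the NF-kappaB consensus. C1qc held GAGGAAGT on the strand opposite to the printed one, hence the capitals ACTTCCTC, and a match to the NF-kappaB consensus, GGGGCTCTCC. The shares of 32851 RefSeq promoter windows with a match were 3.20% and 8.46% for these motifs. C1qb held none of the 6 motifs in this window, which says nothing of the factors. A match is a description of the letters, not of a bound site. Windows were found for 5 of the 9 members, and C1qa, C2, C4b and Serping1 had no entry.

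C1qa, which encodes the A chain, had 19.4, 19.2 and 17.0 CPM in rd10 libraries 1, 2 and 3. It had 2.63, 6.07 and 2.48 CPM in GFP, and 4.65, 5.87 and 7.32 CPM in wild type. The rd10 libraries lay close together, and the normal libraries were all below them. C1qa was 3.11-fold higher in rd10 than in wild type (log2 1.64, SE 0.33, adjusted p of 0.00534 by edgeR) and 5.01-fold higher than in GFP (log2 2.33, adjusted p of 8.87e-04 by edgeR).

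C1qb, the gene of the B chain, had 20.1, 25.1 and 17.6 CPM in rd10. It had 3.81, 8.37 and 3.72 CPM in GFP, and 4.44, 6.54 and 10.6 CPM in wild type. The normal libraries spread more widely than for C1qa, with wild type 3 and GFP 2 highest, and did not reach the rd10 range. C1qb was 2.90-fold higher in rd10 than in wild type and 3.98-fold higher than in GFP (edgeR, adjusted p of 0.0128 and of 0.00402).

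C1qc, the gene of the C chain, had 17.5, 27.4 and 24.2 CPM in rd10. It had 4.35, 7.11 and 6.29 CPM in GFP, and 6.16, 8.66 and 7.72 CPM in wild type. All 6 normal libraries were below 9 CPM in this gene. C1qc was 3.06-fold higher in rd10 than in wild type and 3.90-fold higher than in GFP (edgeR, adjusted p of 0.00154 and of 4.66e-04). Without the 4 libraries with lens RNA, where rd10 1 and rd10 3 stood against wild type 1 alone, the log2 fold changes of C1qa, C1qb and C1qc were 1.96, 2.08 and 1.75. None of the 3 passed there (edgeR, adjusted p of 0.131, 0.102 and 0.0751), in a fit where the spread came from the 2 rd10 and 2 GFP libraries kept. Wild type 1 was the lowest wild type library for all 9 members, so the size of these log2 values follows in part from which library was left. The part of lens RNA was not tested.

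The shares of the chains in the C1q counts overlapped between the groups. C1qa made up 26.8% to 34.0% of the C1q counts of a library in rd10, 19.8% to 28.2% in GFP and 27.9% to 30.5% in wild type. C1qc made up 30.7% to 41.2% in rd10, 33.0% to 50.4% in GFP and 30.1% to 41.1% in wild type. The counts behind these shares were 720 to 891 per library in rd10, 119 to 188 in GFP and 151 to 256 in wild type. At the shallowest, the C1qa share of GFP 1 had an exact 95% binomial interval of 17.0% to 33.1%, which covers counting error only.

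Markers of microglia moved with the C1q genes. Of 15 microglia markers, 8 were higher in rd10 than in wild type and 7 did not pass, none of the 15 was at 0 in any group, and their folds ran from 1.33 to 3.91 with a median of 2.83. Aif1, 1 of the 8, entered the test through the rd10 libraries alone, with 1.37 to 2.29 CPM there, 0.363 to 0.802 CPM in GFP and 0.385 to 0.707 CPM in wild type, so its call adds no support. P2ry13, another of the 8 and the one with the 3.91-fold rise, also depended on the rd10 libraries to enter. Of the normal libraries, only GFP 2 and wild type 2 reached the count limit, so its call adds no support either. Its levels were 2.53 to 4.59 CPM in rd10, 0.667 to 1.49 CPM in GFP and 0.202 to 1.64 CPM in wild type. Csf1r, the receptor of a macrophage growth factor, rose 2.76-fold and Cx3cr1, the fractalkine receptor, 3.18-fold. The list summed to 199 to 229 CPM in rd10, 85.4 to 110.0 CPM in GFP and 86.0 to 120.5 CPM in wild type. For every 100 counts of these markers there were 28.2, 31.3 and 29.5 C1q counts in rd10 libraries 1, 2 and 3. There were 11.3, 19.6 and 14.6 in GFP, and 17.7, 17.5 and 26.0 in wild type. The rd10 libraries were above all normal ones in this ratio. Per 100 counts of Csf1r alone the groups overlapped, with 107 to 153 C1q counts in rd10, 67.6 to 158 in GFP and 90.5 to 192 in wild type. These ratios were not tested.

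The proteases of the C1 complex were the least abundant members, together with C2. C1ra (mm9 chromosome 6, 124462639 to 124473458, plus strand) and C1s (124480362 to 124492377, minus strand) lie 6903 bases apart. C1ra encodes C1r, which cuts itself and then C1s. It had 4.42, 7.65 and 6.64 CPM in rd10. It had 1.09, 0.344 and 1.05 CPM in GFP, and 0, 2.60 and 1.40 CPM in wild type. Wild type 1 held no count, which allows up to 0.303 CPM, and rd10 1 was the lowest rd10 library. The counts were 56, 95 and 90 in rd10, 12, 3 and 11 in GFP, and 0, 27 and 14 in wild type. C1ra was 7.32-fold higher in rd10 than in GFP (95% interval 2.10-fold to 25.5-fold, edgeR, adjusted p of 0.0233), a call lost without rd10 2, rd10 3 or GFP 3 (edgeR, adjusted p of 0.0661, 0.0622 and 0.0576). Against wild type the difference was 4.62-fold (1.41-fold to 15.2-fold) and just missed the threshold (edgeR, adjusted p of 0.0550). It passed in 8 of 16 alternatives and did not in the other 8. Among those where it passed were DESeq2 (adjusted p of 0.0154) and the fits without wild type 1 or wild type 2. The log2 values of these fits were 1.66 and 3.14 (edgeR, adjusted p of 0.0418 and of 0.0426). The near copy C1rb, 46989 bases away, had 0 counts in every library. Of the 2932 windows of 50 bases in the C1ra transcript of GENCODE, 1408 also occur in C1rb, so the split between both genes depends on how the authors counted such reads, which is not given in the sources used here.

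The RefSeq window of C1ra is shown because of the member windows found it was the one with a STAT-type match (GRCm38.p6, chr6:124512371-124512670, plus strand).
C1ra: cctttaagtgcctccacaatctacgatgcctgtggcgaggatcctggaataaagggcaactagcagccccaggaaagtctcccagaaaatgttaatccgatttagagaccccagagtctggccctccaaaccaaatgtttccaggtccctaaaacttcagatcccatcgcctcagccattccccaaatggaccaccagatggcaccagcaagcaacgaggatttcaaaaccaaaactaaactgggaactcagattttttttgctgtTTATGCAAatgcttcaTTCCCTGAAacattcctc

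The capitals are TTATGCAA, a match to the C/EBP motif, and TTCCCTGAA, a match to the STAT motif, at bases 267 and 283 of the window. These matches lie after the RefSeq start. Of all promoter windows, 10.8% held the C/EBP motif and 8.30% the STAT motif.

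C1s, the protease that cuts C4 and C2, had 1.66, 2.41 and 2.29 CPM in rd10. It had 1.27, 1.03 and 1.53 CPM in GFP, and 0.606, 1.25 and 1.60 CPM in wild type. The rd10 libraries were the highest, but rd10 1 exceeded wild type 3 by only a few hundredths of a CPM. With 21 to 31 counts per rd10 library the difference was 1.83-fold against wild type (95% interval 0.909-fold to 3.68-fold) and 1.65-fold against GFP (0.826-fold to 3.30-fold). Neither passed (edgeR, adjusted p of 0.174 and of 0.244), and the intervals hold both no change and a change of more than 3-fold. A near copy of C1s, named C1s2 in RefSeq, shares 24.3% of the 50-base windows of the C1s transcript and had at most 0.505 CPM in any library.

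C4b and C2 lie in the same block of chromosome 17 (mm9). C4b, which encodes complement C4, spans 34865326 to 34880842 on the minus strand, and C2 34999547 to 35019045 on the same strand, 118704 bases further. C4b had 194, 283 and 285 CPM in rd10. It had 6.71, 3.32 and 8.39 CPM in GFP, and 8.48, 18.4 and 12.7 CPM in wild type. The lowest rd10 library held more than all 6 normal libraries added together. C4b averaged 254 ± 52.1 CPM in rd10, 6.14 ± 2.58 CPM in GFP and 13.2 ± 4.96 CPM in wild type (SD, n = 3 each). It was 40.9-fold higher in rd10 than in GFP (log2 5.35, SE 0.38, edgeR, adjusted p of 3.92e-06) and 19.2-fold higher than in wild type (log2 4.26, SE 0.36, edgeR, adjusted p of 1.36e-05). Its fold change was the seventh largest of the 14300 genes tested against wild type (rank 7) and had rank 8 against GFP.

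C4a, a copy of C4b at 34946037 to 34960399 on the same strand, did not follow it. C4a had 0.790, 0.724 and 1.55 CPM in rd10, 1.18, 1.15 and 2.38 CPM in GFP, and 2.63, 2.21 and 1.30 CPM in wild type. The groups overlapped, and the log2 difference of -0.99 against wild type did not pass (edgeR, adjusted p of 0.168). C4a held 0.255% to 0.541% of the counts of both genes in rd10, 14.9% to 25.6% in GFP and 9.29% to 23.6% in wild type. Between their GENCODE transcripts 96.1% of 5367 aligned bases are identical, and 35.2% of the 50-base windows of C4b also occur in C4a. The stretch of 60 bases in the coding part of C4b with the most differences (13) is shown for both, with the differing bases in capitals, since reads over such stretches can be assigned to 1 of the genes.
C4b: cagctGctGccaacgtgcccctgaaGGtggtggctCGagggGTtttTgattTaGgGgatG
C4a: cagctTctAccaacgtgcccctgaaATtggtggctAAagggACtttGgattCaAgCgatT

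C2, whose product joins the C4 fragment to form the enzyme that cuts C3, had 2.77, 3.46 and 2.80 CPM in rd10. It had 1.09, 0.458 and 0.763 CPM in GFP, and 0.707, 1.83 and 1.40 CPM in wild type. The rd10 libraries were all above the normal ones, by a small margin over wild type 2. C2 was 3.82-fold higher in rd10 than in GFP (edgeR, adjusted p of 0.0139, and 0.0790 without the libraries with lens RNA). The 2.28-fold difference from wild type (95% interval 1.13-fold to 4.61-fold) did not pass (edgeR, adjusted p of 0.0762) but did with library totals (edgeR, adjusted p of 0.0312).

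Genes around this block did not move together. Cfb, complement factor B of the alternative pathway, lies 87 bases from C2 and rose 4.11-fold in rd10 over wild type (edgeR, adjusted p of 0.00668). Tnxb, a tenascin gene next to C4b, rose 3.33-fold. The other genes tested between C4b and C2, namely C4a, Stk19, Dom3z, Skiv2l and Rdbp, had log2 differences from -0.99 to -0.05, and the flanking genes Atf6b, Zbtb12 and Ehmt2 from -0.40 to -0.07. None of these 8 passed, by edgeR with an adjusted p of 0.0608 or more. Beside the C1q cluster, the receptor gene Ephb2 rose 2.20-fold, Epha8 had a log2 difference of 0.71 and Zbtb40 one of -0.36, neither past the threshold. Next to C1ra, the log2 difference was 0.35 for Clstn3 and -0.16 for C1rl (edgeR, adjusted p of 0.228 and of 0.851).

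**Figure D3:**
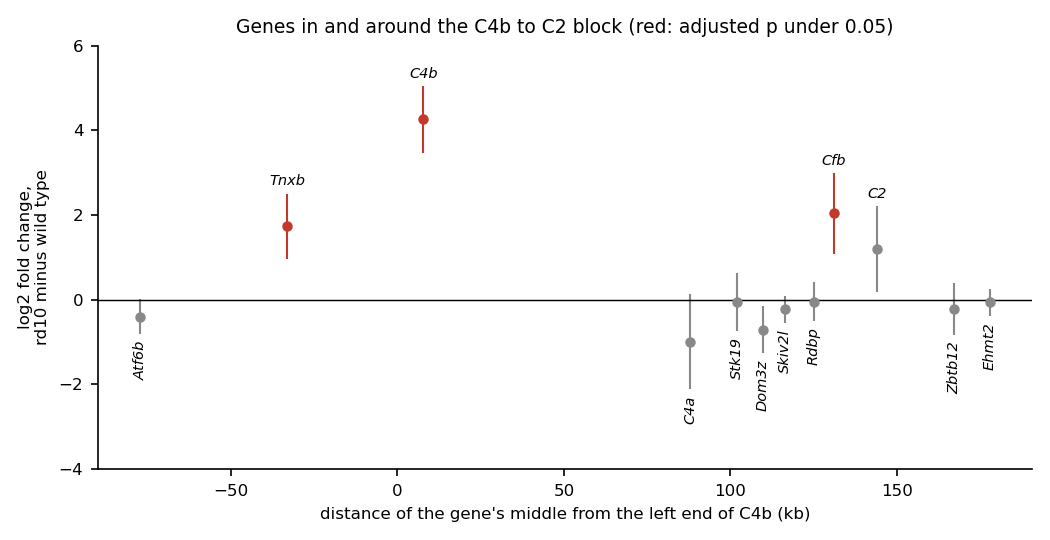
Log2 fold change in rd10 minus wild type with its 95% interval (vertical axis) for tested genes in and around the C4b to C2 block, by distance of each gene's middle from the left end of C4b in kb (horizontal axis). Tnxb, C4b and Cfb, in red, have an adjusted p under 0.05; the genes between them stand near or below 0.

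C3 (mm9 chromosome 17, 57343396 to 57367559, minus strand) encodes the protein on which all complement pathways meet. It had 34.9, 47.5 and 46.3 CPM in rd10. It had 5.53, 1.95 and 4.20 CPM in GFP, and 2.93, 8.76 and 7.92 CPM in wild type. The normal libraries differed among themselves by several-fold, with wild type 1 and GFP 2 lowest, yet all lay far below the rd10 libraries. C3 was 10.9-fold higher in rd10 than in GFP and 6.55-fold higher than in wild type (edgeR, adjusted p of 2.60e-04 and of 0.00104). Without the libraries with lens RNA it was 13.8-fold higher than in wild type 1, the wild type library left. Its RefSeq window (GRCm38.p6, chr17:57228087-57228386, minus strand) is shown as the one with TATAAA among the member windows found.
C3: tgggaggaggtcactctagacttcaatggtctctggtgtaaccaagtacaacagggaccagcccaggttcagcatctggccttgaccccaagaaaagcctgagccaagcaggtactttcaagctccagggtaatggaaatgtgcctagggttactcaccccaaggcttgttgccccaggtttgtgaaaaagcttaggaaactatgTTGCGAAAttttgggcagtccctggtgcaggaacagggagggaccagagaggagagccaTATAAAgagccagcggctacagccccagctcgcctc

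The capitals mark TTGCGAAA, the C/EBP motif on the strand opposite to the printed one, and TATAAA. The match to TATAAA begins at base 265 of the window, after the RefSeq start, and 13.6% of all promoter windows held this motif.

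Serping1 (mm9 chromosome 2, 84605517 to 84615586, minus strand) encodes the C1 inhibitor, which removes active C1r and C1s from the complex. It had 98.9, 134 and 118 CPM in rd10. It had 14.4, 11.1 and 13.7 CPM in GFP, and 9.39, 19.4 and 20.8 CPM in wild type. The GFP libraries lay close together, while wild type 1 had less than the other wild type libraries. Serping1 averaged 117 ± 17.4 CPM in rd10, 13.1 ± 1.74 CPM in GFP and 16.5 ± 6.22 CPM in wild type (SD, n = 3 each). It was 8.90-fold higher in rd10 than in GFP and 7.05-fold higher than in wild type (edgeR, adjusted p of 2.10e-05 and of 4.53e-05), or 11.5-fold higher than wild type 1 without the libraries with lens RNA. The differences of its targets C1ra and C1s from wild type were 4.62-fold and 1.83-fold, and the gap between these folds and that of Serping1 was not tested.

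Relative to markers of Müller glia and microglia, C4b, C3 and Serping1 also stood higher in rd10. The 10 Müller glia markers summed to 10394 to 10983 CPM in rd10, 5745 to 6585 CPM in GFP and 5022 to 6485 CPM in wild type, 9 of 10 being higher in rd10 than in wild type and none at 0. Per 1000 counts of these markers there were 18.0 to 27.2 counts of C4b in rd10, 0.566 to 1.27 in GFP and 1.69 to 2.83 in wild type. Per 100 counts of the microglia markers there were 96.0 to 143 counts of C4b in rd10, 3.02 to 9.82 in GFP and 9.86 to 15.3 in wild type. For Serping1 this ratio was 49.0 to 59.0 in rd10, 10.1 to 16.1 in GFP and 10.9 to 21.0 in wild type. For C3 it was 17.3 to 23.2 in rd10, 1.77 to 5.80 in GFP and 3.40 to 8.02 in wild type. None of these ratios overlapped between rd10 and the normal groups. The files hold no cell types, and the source of these transcripts was not tested.

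**Figure D4:**
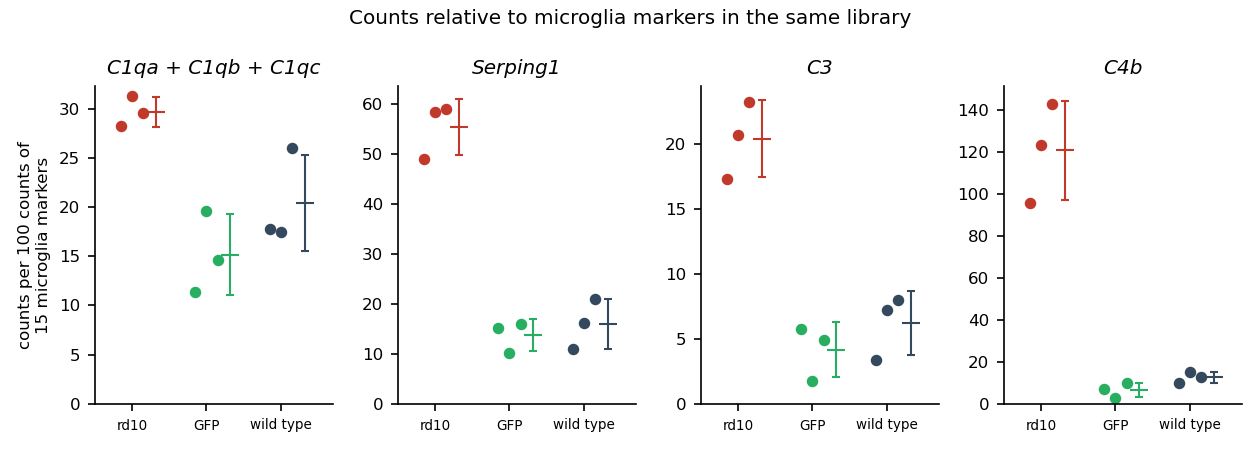
Counts of the 3 C1q genes summed, of Serping1, of C3 and of C4b per 100 counts of 15 microglia markers in the same library (vertical axes, linear, starting at 0), for rd10, GFP and wild type. Dots are libraries and bars the mean and SD; rd10 libraries stand at 28.2 to 31.3 for C1q and at 96.0 to 143 for C4b, above the normal libraries in each panel.

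Markers of other tissues that could be present were read in the same way. Of 8 connective tissue markers, 2 of 7 tested were higher in rd10 than in wild type (Col1a2 and Fbln1). The list summed to 280.3 to 379.8 CPM in rd10, 59.3 to 120.2 CPM in GFP and 56.9 to 169.9 CPM in wild type. Most of the rd10 sum was Fbln1, with 223 to 296 CPM in rd10, 37.1 to 97.2 CPM in GFP and 33.1 to 134.7 CPM in wild type. Of the 5 that did not pass, Col3a1, Dcn and Postn overlapped between rd10 and wild type. For Col1a1 and Pdgfra every rd10 library lay above every wild type one. Of 10 blood vessel markers 1 was higher (Kdr), with sums of 702 to 995 CPM in rd10, 216 to 454 CPM in GFP and 221 to 384 CPM in wild type. Most of the rd10 sum was Kdr itself. Kdr had 495 to 711 CPM in rd10, 90.2 to 234 CPM in GFP and 105 to 201 CPM in wild type. The endothelial genes Pecam1, Cdh5 and Cldn5 overlapped between rd10 and wild type, with log2 differences of -0.38, -0.17 and 0.01. Tie1, Rgs5 and Flt1 overlapped too, at 0.41, 0.52 and 0.71. Esam and Pdgfrb, at 0.42 and 0.74, had every rd10 library above every wild type one without passing. Kcnj8 had every rd10 library below every wild type one, also without passing. The median log2 difference of the 10 markers was 0.41. Of 10 pigment epithelium markers 3 were higher (Dct, Lrat and Tyrp1), with sums of 479.9 to 648 CPM in rd10, 328 to 499 CPM in GFP and 205 to 605 CPM in wild type. Of 12 lens markers none (0) passed. Markers of leukocytes from blood were low, at 6.87 to 9.34 CPM summed over 12 genes in rd10, 4.44 to 5.16 CPM in GFP and 3.08 to 6.42 CPM in wild type, the rd10 sums being the highest. Of the 3 with enough counts to test, Ptprcap was lower in rd10 than in wild type. Ncf1 and Cd8a had 3.31-fold and 2.16-fold higher fitted levels, with every rd10 library above every normal one, and did not pass (edgeR, adjusted p of 0.176 and of 0.229). Cd8a entered the test through the rd10 libraries alone. Of the neutrophil genes, S100a9 had 11, 6 and 0 counts in rd10, 0, 6 and 2 in GFP, and 0, 3 and 0 in wild type, and S100a8 had none (0) in rd10 and wild type. The part of connective tissue, vessel, pigment epithelium, leukocyte and glial RNA in the members' differences was not tested.

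Per kilobase of exon, from GENCODE lengths, the order of the members differed between the groups. In rd10, Serping1 stood first with 58.0 ± 8.65 CPM per kb, then C4b with 47.2 ± 9.68 (SD, n = 3 each), whose libraries overlapped with those of Serping1. C1qb, C1qc and C1qa followed with 19.2, 19.1 and 17.8 CPM per kb, closer together than their spread, then C3 with 8.35, C1ra with 2.09, C2 with 1.08 and C1s with 0.711. In GFP, Serping1 had 6.51 CPM per kb, the 3 C1q genes 3.58 to 4.92, C4b 1.14, C3 0.758, and C1s, C1ra and C2 between 0.277 and 0.427. In wild type, Serping1 had 8.22 CPM per kb, the 3 C1q genes 5.72 to 6.62, C4b 2.45, C3 1.27, and C2, C1ra and C1s between 0.387 and 0.472. C4b thus ranked above all C1q genes in rd10 and below them in both normal groups. Of the counts of the 9 genes together, C4b held 49.3% to 54.9% in rd10 libraries, 8.36% to 19.9% in GFP and 17.8% to 25.1% in wild type, and the C1q genes less in rd10 than in any normal library.

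**Figure D5:**
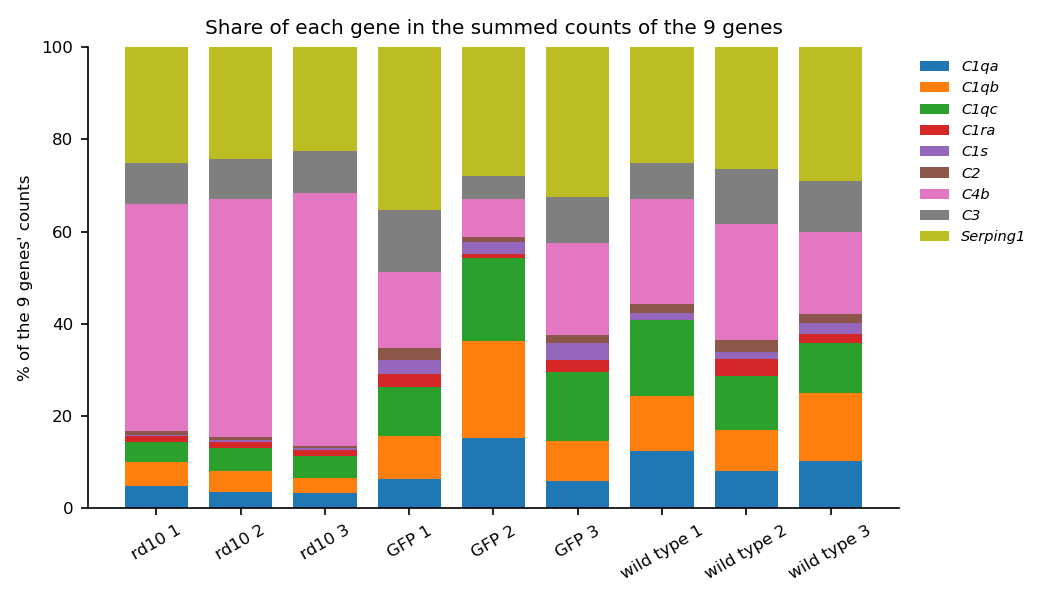
Share of each gene in the summed counts of the 9 genes in percent (vertical axis), for each library of rd10, GFP and wild type. C4b takes 49.3% to 54.9% of a bar in rd10 and at most 25.1% in the normal libraries.

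The normal groups were compared as well. No member passed between GFP and wild type (0 of 9 by edgeR and 0 by DESeq2), nor did any of the 14300 genes tested by edgeR, with 0% higher and 0% lower. At an unadjusted p under 0.05 by edgeR there was 1 member, C4b, and 1.5% of all genes. C4b was 2.13-fold lower in GFP than in wild type (95% interval of log2 from -1.86 to -0.33), and its 3 GFP libraries lay below the 3 wild type ones, as for 2.46% of genes tested. For the other 8 members the libraries overlapped, and the log2 differences ran from -0.75 for C2 to 0.15 for C1s. The 95% interval of Serping1 reached from -0.93 to 0.26 and that of C1ra from -2.56 to 1.23.

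Beyond the 9 genes, 18 of 19 further complement components were in the files, and 6 of them (C1rb, Mbl1, Mbl2, Hc, C8a and C9) had no count in any library. Only 5 had enough counts to test. Cfb was the 1 that rose in rd10 over wild type, and C1rl, C4a, Cfp and Masp2 did not pass. Hc encodes C5, and C8a and C9 encode parts of the pore that ends the cascade. Other parts of this pore had a few counts, too few to test. C8g had 1, 6 and 8 counts in rd10, 0, 2 and 2 in GFP, and 7, 8 and 15 in wild type, C8b had at most 7 in a library and C6 at most 2. Of 20 regulators and receptors, 13 were tested, of which 7 were higher in rd10 than in wild type, 2 lower and 4 did not pass. The median log2 fold change was 1.09 over these 13 and -0.16 over the 5 components.

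Cfi, the protease that inactivates C3 and C4 fragments, had 9.96, 10.5 and 10.6 CPM in rd10, 1.90, 1.49 and 1.53 CPM in GFP, and 0.606, 2.21 and 0.301 CPM in wild type. It rose 9.81-fold over wild type. Receptors of C3 fragments rose as well, Itgam 4.38-fold and C3ar1 5.21-fold. Itgax, a further chain of such a receptor, had 12, 15 and 17 counts in rd10, 0 in every GFP library and 2, 0 and 0 in wild type. It entered the test through the rd10 libraries alone, so its place among the 7 adds no support. Clu, the clusterin gene, rose 2.13-fold and Cr1l, a membrane inhibitor of C3 cleavage, 2.08-fold. Vtn, whose product vitronectin inhibits the terminal pathway in plasma, fell to 71.9, 78.7 and 81.8 CPM in rd10, against 1176, 1924 and 1440.2 CPM in GFP and 1092, 1554 and 1325 CPM in wild type. Cd59a, an inhibitor of the pore that was named after its value was seen, was 1.59-fold lower. The adjusted p of these genes by edgeR lay between 1.05e-06 for Vtn and 0.0435 for Cd59a.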

How the data were processed

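The deposited files gave raw counts per gene, read as such because the authors' values were whole numbers with differing totals, made on mouse build mm9 per the submitters' processing notes. Aligner, counting program, strand setting and multiple matches are not given in the sources used here. Genes were kept by filterByExpr (minimum count 10, minimum total 15) and scaled by TMM. The 9 members all passed, none of them through the rd10 libraries alone. All 9 libraries entered one edgeR 4.0.16 model (R 4.3.3), in which each group had its own mean, each pair of groups was compared by its quasi-likelihood F-test, and p values were adjusted by Benjamini-Hochberg over all genes tested. Alternatives included DESeq2 1.42.0. The procedure was tested on simulated data. Members and lists were chosen with earlier results of these data known. Genes named besides the members were, of 2 complement lists, up to 8 passing genes with the smallest adjusted p, the neighbours on the genome, and the 3 genes of at least 5 CPM with the nearest profile for 4 members. One gene under this rule is not reported here. Files give mm9 positions, with 1 added to starts. Promoters (RefSeq) and transcripts (GENCODE M21) are of GRCm38, and no position was converted. Replicate libraries differed by far more than counting error (chi-square per degree of freedom 13.0 to 76.1).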

Additional observations from a re-analysis of the deposited data

How the results depend on the processing

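C3, C4b and Serping1 stayed higher and past the threshold in rd10 against both normal groups under all 16 alternatives, with log2 values from 2.39 to 3.78, 4.06 to 4.81 and 2.56 to 3.52 against wild type. The count of members called stayed between 4 and 8 of 9 against wild type. The C1q calls against wild type were lost only without the libraries with lens RNA, where wild type was 1 library, assumed to vary like those kept of the other groups. Of the 9 GFP differences from wild type, none of which passed, 6 changed sign under at least 1 alternative, C1ra under 2. Without the lens libraries they were 0.43 for C1qb, 0.12 for C1qc, 0.084 for C3, 0.40 for Serping1 and 6.003 for C1ra, fitted against the single wild type library without a count. Leaving out 1 library gave -0.14 to 0.45 for C1s and -1.21 to 0.26 for C1ra; the cause was not tested.

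Over all genes, the 2067 higher and 1988 lower against wild type became 86 and 457 without the libraries with lens RNA, 899 and 983 with a change of at least 2-fold, and at the lowest 1269 and 1186 without single rd10 libraries. Against GFP, 2174 and 2138 became 4041 and 1055 with library totals, 876 and 970 without the lens libraries, 972 and 1029 with at least 2-fold, and at the lowest 1297 and 1305 without single libraries. Between GFP and wild type, DESeq2 called 2 genes lower, and 4 were higher without GFP 3. With a replicate block, 6 and 8 members were called as before. Replicate numbers do not pair the samples: of 9 same-numbered pairs, correlations of deviations ran from -0.37 to 0.36, and 0 of 9 libraries were closest to their own number in both other groups. C1s and C2 had the fewest counts, at most 31 and 43 in a library.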

Other observations

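Profiles over the 9 libraries were compared as the root mean square difference of log2 CPM, each gene centred on its own mean, among 11712 other genes of at least 5 CPM. This is a description with no test. Profiles were centred but not scaled, so a difference in the size of a change adds to the distance between genes. Nearest to C1qa were C1qb (0.23), Ctss (0.33), which encodes the lysosomal protease cathepsin S, and Parp9 (0.34), with C1qc at rank 8. Nearest to C4b were Serpina3n (0.57), A2m (0.81) and Cd74 (0.82), followed by C3 and Serping1 at ranks 4 and 5. C3 and Serping1 were each among the 3 nearest to the other (0.34), with Cd74 (0.33) and Flnc (0.43) beside C3, and Gfap (0.37) and A2m (0.41) beside Serping1. The ranks are not mutual. From C3, C4b stood at rank 43 (0.85) and the 3 C1q genes at ranks 58 to 92. From Serping1, C4b stood at rank 365 (0.98), behind C1qc, C1qa and C1qb at ranks 32, 36 and 40 (0.67 to 0.72).

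Single libraries stood apart within the normal groups. Wild type 1 had the lowest CPM of the 3 wild type libraries for all 9 members. It also had the lowest sums of the microglia (86.0 CPM), connective tissue (56.9 CPM) and pigment epithelium (205 CPM) markers, and the highest of the blood vessel markers (384 CPM). GFP 2 was the lowest GFP library for 6 members, C3 and C4b among them, but the highest for the 3 C1q genes, with 110.0 CPM of microglia markers against 95.3 and 85.4 CPM in GFP 1 and GFP 3. In rd10, library 1 was the lowest for 7 of the 9 members. The part of dissection or tissue content in these values was not tested.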
